A study of Homo sapiens with 4 samples.

Results

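The S100 genes encode small calcium-binding proteins. The 9 members described here, S100A2, S100A3, S100A4, S100A6, S100A10, S100A11, S100A13, S100A14 and S100A16, were chosen by symbol, and 8 of them were found among the 13165 genes of the deposited table. S100A14 was not listed in it. RNA came from TPC1, a line grown from a human papillary carcinoma of the thyroid. TPC1-Vector cells carried the empty retroviral vector, and TPC1-C1orf106 cells, called TPC1-INAVA here after the current symbol of the gene, carried the same vector with INAVA. Both were kept in DMEM with fetal bovine serum and made stable with puromycin at 0.5 μg/mL, and each was sequenced as 2 libraries. Below, a value with the vector is that of TPC1-Vector, and a value with INAVA is that of TPC1-INAVA. The comparison asks which transcripts differ when INAVA is overexpressed.

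The deposited table holds 1 value per gene and group. Values are in FPKM, the number of fragments scaled to 1 kb of transcript and 1000000 mapped fragments. Both libraries of a group stand behind 1 value, so no spread between replicates, SD or test could be computed, and every difference below is a description of these values. The labels do not say whether the libraries of a group came from separate cultures. The depth is unknown. INAVA was at 7.96 FPKM with the vector and 123 FPKM with INAVA. Of the thyroid follicular markers sought, PAX8 (60.1 and 55.7 FPKM) and FOXE1 (5.26 and 5.89 FPKM) were listed, whereas TG, TSHR, SLC5A5 and NKX2-1 were not. PAX8 shares its recorded position with another gene. Of 6 epithelial markers, KRT7 was at 1.97 and 2.01 FPKM, KRT8 at 23.4 and 10.5 FPKM, and KRT18 at 140 and 212 FPKM. KRT8 was thus lower and KRT18 higher with INAVA, both past 1.5-fold, and the table gives the pair the same position. KRT19, EPCAM and CDH1 were not listed. A gene that is not listed has no value here, which does not show that it was silent.

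As background, an S100 protein binds calcium through a pair of helix-loop-helix motifs called EF hands and usually works as a dimer. Calcium opens a cleft through which the dimer holds a target protein, such as an annexin at the membrane or a myosin of the cytoskeleton. Several S100 proteins can also leave the cell and bind receptors such as AGER. S100A4 is known for its part in cell motility and metastasis, and it has been studied in papillary thyroid cancer together with other members of the family.

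All 9 members lie on the reverse strand of chromosome 1 (GRCh38, GENCODE release 29), in a cluster where most of the family is found. S100A10 (151982915 to 151994390) and S100A11 (152032506 to 152047907) stand apart, and 1487 kb lie between S100A11 and the next member. The other 7 members lie within 96.8 kb. In the order of the chromosome they are S100A6 (153534599 to 153536244), S100A4 (153543613 to 153550136), S100A3 (153547329 to 153549372), S100A2 (153561108 to 153567890), S100A16 (153606886 to 153613145), S100A14 (153614255 to 153616986) and S100A13 (153618787 to 153631360). The genes are compact, with annotated transcripts from 311 bases for S100A6 to 2184 bases for S100A13.

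The bases just before the annotated starts of transcription were compared between members. RefSeq (GRCh38.p14) gave 13 promoter windows for the 9 members. TATAA, the core of the TATA box, was sought on the gene's strand from base 45 to base 16 before the start, and 4 of the 13 windows held it, 1 each for S100A4, S100A6, S100A13 and S100A14. Of all 35116 promoter windows, 4.09% held it in that stretch. The stretches with the match are shown first, with TATAA in capitals, and those of S100A3 and S100A11 follow for comparison, each written 5′ to 3′ on the reverse strand.

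S100A4 (chr1:153545822-153545851): gggcctggctggggTATAAataggtcagac
S100A6 (chr1:153536007-153536036): cggggcaccgaccgcTATAAggccagtcgg
S100A13 (chr1:153627521-153627550): ctccttccccgctgctTATAAacctcagcc
S100A14 (chr1:153616341-153616370): cctcccttcccccaggTATAAgagctgagc
S100A3 (chr1:153549274-153549303): tgctcaaaacccccaggggtcgggagggta
S100A11 (chr1:152037020-152037049): tctgagtaaggcttgggcaaggctgggccg

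The match began 31 bases before the start in S100A4, 30 in S100A6, and 29 in S100A13 and S100A14. S100A13 has 3 windows in the table, and the other 2 do not hold TATAA in this stretch. S100A4 and S100A6, which hold the match, were lower with INAVA, and S100A13 was higher. S100A3 lies within the span of S100A4, and S100A4 holds the match whereas S100A3 does not. Over the whole 250 bases before the start and on both strands, TGANTCA, the site of AP-1 factors, was in 1 window each of S100A3 and S100A2, against 6.57% of all windows. A match of letters is no evidence that a factor binds there. The windows also overlap annotated transcripts. GENCODE exons covered all 250 bases of the S100A6 window, 79 of the S100A4 window and 30 of the S100A14 window. They covered 93 of the S100A13 window with the match, 114 of the S100A3 window and 31 of the S100A11 window.

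The 8 listed members covered a wide range of levels. S100A11 was the most abundant, at 845 FPKM with the vector and 1024 FPKM with INAVA, and S100A3 the least abundant, at 2.01 and 2.51 FPKM. The level of S100A11 was 419 times that of S100A3 in TPC1-Vector and 409 times in TPC1-INAVA. In both groups 5 members were above 100 FPKM and 2 were under 10 FPKM. The order was the same in both groups, from S100A11 through S100A16, S100A10, S100A6, S100A13, S100A2 and S100A4 to S100A3. Without a spread, whether neighbours in this order differ beyond replicate error cannot be said.

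**Figure D1:**
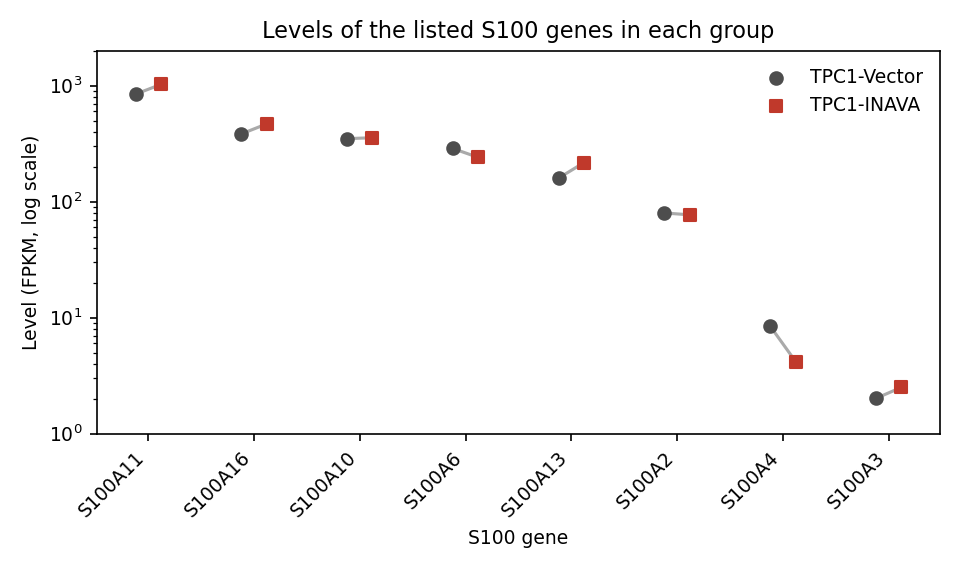
Level of each listed S100 gene, in FPKM on a log axis, with 1 value per group (circles for TPC1-Vector, squares for TPC1-INAVA, joined by a line). The genes span from 2.01 to 845 FPKM in TPC1-Vector, and the steepest line is that of S100A4, from 8.42 to 4.18 FPKM.

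Among all 13165 genes, S100A11 ranked 75 by FPKM in TPC1-Vector and 60 in TPC1-INAVA. S100A16 ranked 146 and 128, S100A10 166 and 165, and S100A6 204 and 265. S100A13 moved from rank 432 to rank 306. S100A4, in contrast, ranked 7177 in TPC1-Vector and 8975 in TPC1-INAVA. The S100 transcripts of these cells were thus mostly those of S100A11, S100A16 and S100A10, which together made up 74.6% of the summed FPKM of the 8 members in TPC1-Vector and 77.3% in TPC1-INAVA.

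A member was counted as past the fold where its difference in log2(FPKM + 0.5) was at least 1.5-fold. By this rule 1 of the 8 listed members, S100A4, was past the fold, and it was lower in TPC1-INAVA. Of the 12305 genes that averaged 0.5 FPKM or more, 3.7% were past the fold in either direction, 2.24% higher and 1.45% lower. The count of members is 1 gene, too few to set against these shares. At a lower limit of 0.32 in log2 there were 2 members, S100A13 higher and S100A4 lower, beside 14.4% of all genes, 7.69% higher and 6.74% lower. At 2-fold there were 0 members, beside 0.853% of all genes, 0.61% higher and 0.244% lower. In all, 5 members were higher in TPC1-INAVA and 3 were lower, beside 6256 higher and 6049 lower of all genes tested. The median log2 fold change of the members was 0.14, beside 0.0033 over all genes tested. In both groups 5 members were above 100 FPKM. Of the 782 genes that averaged 100 FPKM or more, 489 were higher and 293 lower. The median of those 782 genes was 0.037, and -0.0021 under quantile normalization. With 8 members, a trait of the family cannot be told from these general shares. Each member kept its direction under both other scalings tried. A pseudocount added to both groups cannot change a direction.

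**Figure D2:**
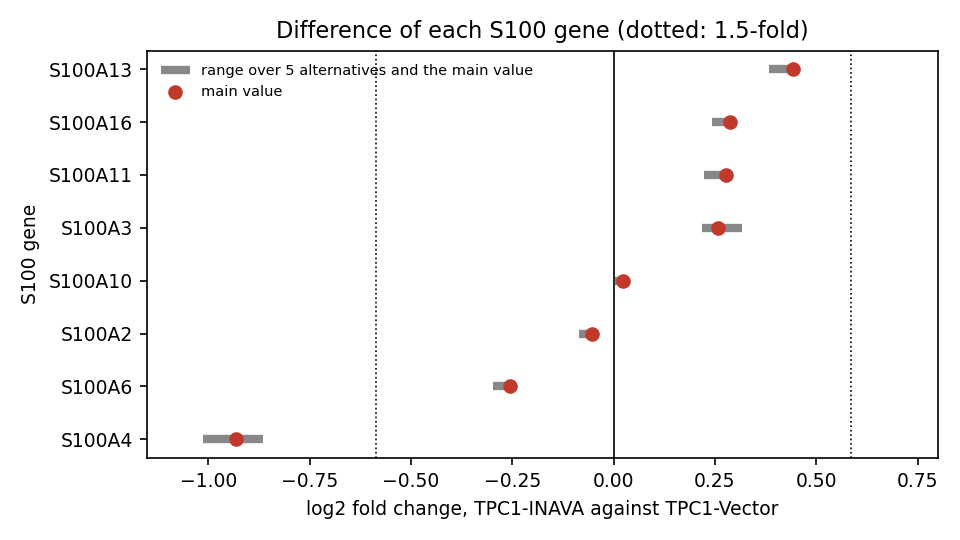
Log2 fold change of each listed S100 gene, TPC1-INAVA against TPC1-Vector, on the log2(FPKM + 0.5) scale (points), with the range over the main value and 5 alternatives in pseudocount and scaling (bars, which are not replicate errors). S100A4, at -0.93, lies beyond the dotted 1.5-fold line, and the other 7 genes lie between -0.26 and 0.44.

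S100A4 binds the heavy chain of non-muscle myosin IIA, encoded by MYH9, and loosens its filaments. S100A4 was at 8.42 FPKM with the vector and 4.18 FPKM with INAVA. The vector value was thus 2.02 times the INAVA value, and the log2 fold change was -0.93. It ranked 43 from the lowest among the 12305 genes tested. Among the 5698 genes with a mean under 10 FPKM, of which 2.09% were past the fold downwards, 30 were as low, S100A4 included. Its transcripts are 531 to 755 bases long. Over that full length its value in TPC1-INAVA would stand for 2.22 to 3.15 fragments per 1000000 mapped, against 4.47 to 6.36 in TPC1-Vector. The length by which its FPKM was computed is not known. S100A4 thus had the largest fold difference of the 8 listed members, at the second lowest level.

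S100A3, a cysteine-rich member best known from the hair cuticle, lies within the span of S100A4. S100A3 was at 2.01 FPKM with the vector and 2.51 FPKM with INAVA, a log2 fold change of 0.26. The deposited table gives S100A3 and S100A4 the same position, although their annotated exons share 0 bases. The level of S100A4 was 4.18 times that of S100A3 in TPC1-Vector and 1.67 times in TPC1-INAVA. Added together, the pair was at 10.4 FPKM with the vector and 6.68 FPKM with INAVA, a log2 fold change of -0.61. The sum was thus also lower in TPC1-INAVA. How reads at this position were divided between the pair was not tested.

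S100A6, also called calcyclin, binds CACYBP, a protein linked to ubiquitin ligases. S100A6 was at 287 FPKM with the vector and 241 FPKM with INAVA, a log2 fold change of -0.26. It was the only strongly expressed member, above 100 FPKM, that was lower in TPC1-INAVA. Of the 782 genes that averaged 100 FPKM or more, 5.12% had a log2 fold change as low as this. CACYBP was at 103 and 105 FPKM. The level of S100A6 was 2.795 times that of CACYBP in TPC1-Vector and 2.3 times in TPC1-INAVA.

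S100A13 takes part in the release of proteins that lack a signal peptide, FGF1 and IL1A among them. S100A13 was at 160 FPKM with the vector and 217 FPKM with INAVA, which is 36.0% higher, with a log2 fold change of 0.44. This was the largest log2 difference upwards among the 8 listed members, and 4.22% of those 782 strongly expressed genes were as high. FGF1, the protein whose release needs S100A13, was at 3.25 FPKM with the vector and 10.6 FPKM with INAVA. Both genes of the pair were thus higher in TPC1-INAVA, but by different amounts, and the level of S100A13 was 49.2 times that of FGF1 in TPC1-Vector and 20.4 times in TPC1-INAVA. IL1A and SYT1, which encodes another protein of the FGF1 release complex, were not listed.

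The S100A13 value also carries an uncertainty of position. The deposited table places S100A13, S100A1 and CHTOP at 1 shared position. S100A1, which lies on the opposite strand, shares 235 of the 2216 exon bases of S100A13. A processed transcript on the same strand, AL162258.1, shares 536 of them and was not listed. Of the 50-base words in the annotated transcripts of S100A13, 25.7% also occurred in transcripts of these 2 genes. S100A1, a member best known from heart muscle, was at 2.08 FPKM with the vector and 1.35 FPKM with INAVA. S100A13 and S100A1 added together were at 162 and 219 FPKM, a log2 fold change of 0.43.

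S100A11 binds annexin A1 at membranes and takes part in vesicle traffic and membrane repair. S100A11 was at 845 FPKM with the vector and 1024 FPKM with INAVA, which is 21.3% higher, with a log2 fold change of 0.28. ANXA1, its partner, was at 268 and 260 FPKM, and ANXA6, another annexin that S100A11 binds, at 150.1 and 167.6 FPKM. The level of S100A11 was 3.16 times that of ANXA1 in TPC1-Vector and 3.945 times in TPC1-INAVA. Of the 50-base words of S100A11 transcripts, 1.9% occurred in another annotated gene, AC006483.1.

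S100A16, a broadly expressed member, was at 384 FPKM with the vector and 468 FPKM with INAVA. The value was 22.0% higher, with a log2 fold change of 0.29, close to that of S100A11. Among the same 782 genes, 8.7% were as high as S100A16 and 9.21% as high as S100A11. S100A16 shared none of its 50-base words with transcripts of other annotated genes, and the same held for S100A2, S100A3, S100A4, S100A6, S100A10 and S100A14.

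S100A10, also called p11, no longer binds calcium. It joins annexin A2 in a complex at the cell surface that gathers PLAT and plasminogen. S100A10 was at 350 FPKM with the vector and 355 FPKM with INAVA, a log2 fold change of 0.024. ANXA2, its partner, was at 1315 and 1523 FPKM, and AHNAK, a large scaffold protein that binds the complex, at 157 and 157 FPKM. The level of ANXA2 was 3.76 times that of S100A10 in TPC1-Vector and 4.285 times in TPC1-INAVA. S100A2, a nuclear member of epithelial cells, was at 79.9 and 76.9 FPKM, a log2 fold change of -0.054. S100A10 and S100A2 were the members with the smallest differences, and S100A10 was 1.7% higher and S100A2 3.67% lower with INAVA.

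Summed over the 8 listed members, the level was 2115 FPKM with the vector and 2389 FPKM with INAVA, a ratio of 1.13. S100A11 alone made up 179.6 of the 274 FPKM between the sums. Without S100A11 the sums were 1270.5 and 1365 FPKM, a ratio of 1.07. The share of S100A11 in the sum was 39.9% in TPC1-Vector and 42.9% in TPC1-INAVA, that of S100A16 18.1% and 19.6%, and that of S100A13 7.55% and 9.09%. The share of S100A6 was 13.6% and 10.1%, that of S100A10 16.5% and 14.9%, and that of S100A2 3.78% and 3.22%. S100A4 made up 0.398% and 0.175%, and S100A3 0.0952% and 0.105%. S100A11, S100A13, S100A16 and S100A3 thus took a larger part of the sum with INAVA. S100A6, S100A10, S100A2 and S100A4 took a smaller one. The smaller part of S100A10 was not a fall in its own level, which was 1.7% higher with INAVA, since the sum rose by more.

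**Figure D3:**
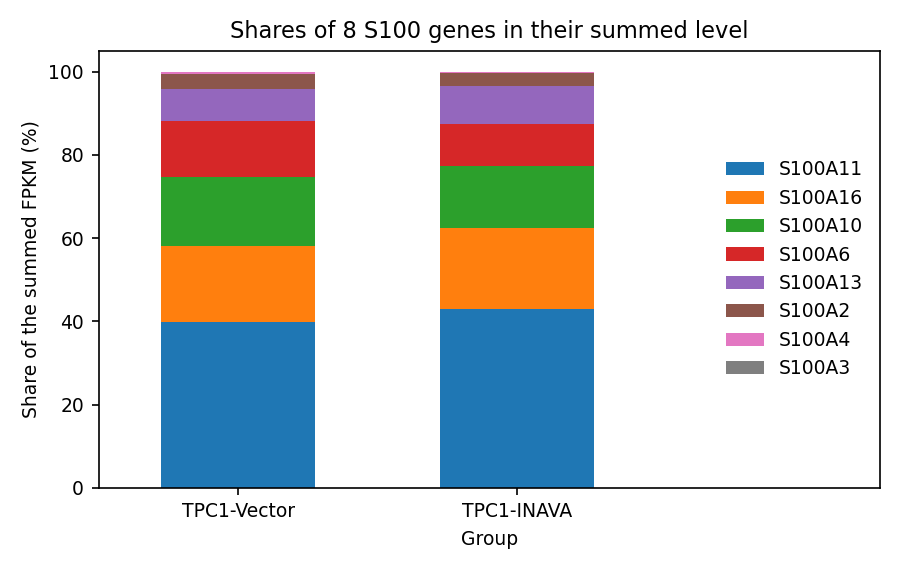
Share of each of the 8 listed S100 genes in their summed FPKM, in percent, for TPC1-Vector and TPC1-INAVA (1 stacked bar per group, S100A11 at the bottom). The S100A11 part covers 39.9% and 42.9% of the bars, and the parts of S100A4 and S100A3 are too thin to see at this scale.

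Of 21 further symbols sought, for other S100 genes, their fused-type relatives and S100PBP, 5 were listed. FLG, which encodes filaggrin of the skin barrier, was at 32.7 FPKM with the vector and 41.1 FPKM with INAVA, and it shares its position in the table with the antisense gene FLG-AS1. S100PBP, which encodes a binding protein of S100P, was at 7.72 and 7.59 FPKM, and also shares its recorded position with another gene. HRNR was at 0.42 and 0.648 FPKM, and S100A5 was at 0.295 and 0.389 FPKM, under the filter of 0.5 FPKM on the mean. Of the 4 genes that passed the filter, S100A1 among them, 0 were past 1.5-fold, beside 3.7% of all genes. This count rests on the pseudocount, since S100A1 was past the fold with a pseudocount of 0.1, and both S100A1 and HRNR without one. The counts over all genes also rose, from 276 higher and 179 lower to 376 and 289 with 0.1, and 411 and 329 without one. S100A7, S100A8, S100A9, S100A12, S100B and S100P were not listed. Nor were PTPRC and ITGAM, markers of the myeloid cells that use S100A8 and S100A9, and CD14 and LYZ were each under 1 FPKM in both groups. Of 4 markers of fibroblasts, which use S100A4, COL3A1 and DCN were not listed. COL1A1 was at 0.937 FPKM with the vector and 0.571 FPKM with INAVA, and LUM at 0.383 and 0.225 FPKM, all under 1 FPKM. SOX10, a marker of Schwann cells, was not listed, nor were the keratinocyte markers KRT5, KRT14, KRT1 and IVL. The RNA came from the cultured line TPC1, which the paper reports as authenticated by STR profiling. These markers therefore describe the line itself and not a mixture of tissue cells. Within the line, fewer cells that express a gene and less RNA per cell cannot be told apart in bulk RNA. The cause of the S100A4 difference was not tested.

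Genes around the S100 cluster went both ways. From 1 Mb before S100A10 to 1 Mb after the recorded end of S100A13, 47 other genes passed the filter, of which 20 were higher and 27 lower in TPC1-INAVA, with a median log2 fold change of -0.020. Over all genes tested, 6256 were higher and 6049 lower, with a median of 0.0033. Among the 47 neighbours 1, or 2.13%, was past 1.5-fold, beside 3.7% of all genes, 276 higher and 179 lower. With a pseudocount of 1 there were 0, beside 201 genes higher and 124 lower. Without a pseudocount there were 4, or 8.51%, beside 411 genes higher and 329 lower. The neighbour past the fold in the main setting was SEMA6C, at 1.98 FPKM with the vector and 1.12 FPKM with INAVA. CHTOP, which shares the recorded position of S100A13, was at 46.1 and 42.7 FPKM. Within the 96.8 kb that hold 7 of the members, S100 values went both ways, from -0.93 for S100A4 to 0.44 for S100A13.

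**Figure D4:**
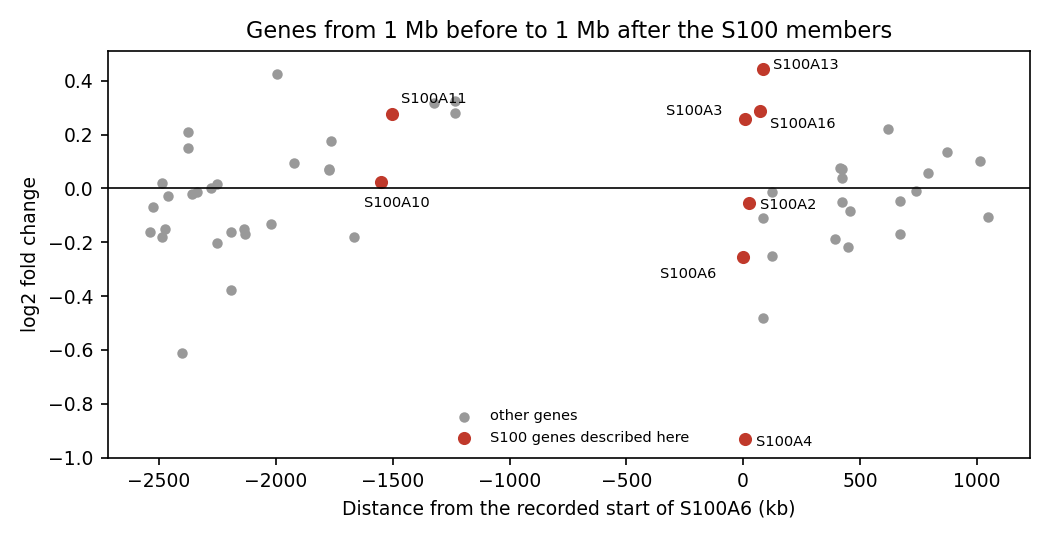
Log2 fold change, TPC1-INAVA against TPC1-Vector, of genes that averaged 0.5 FPKM or more, from 1 Mb before S100A10 to 1 Mb after S100A13, against the distance in kb from the recorded start of S100A6. Red points are the 8 S100 genes described here, from -0.93 for S100A4 to 0.44 for S100A13, and grey points are the 47 other genes, from -0.61 to 0.43.

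The proteins that S100 proteins bind or work with were described through a list of 45 genes, of which 39 were listed and passed the filter. Of these, 31 were higher and 8 lower in TPC1-INAVA (25 and 14 under quantile normalization). Over all genes tested, 6256 were higher and 6049 lower (5939 and 6335 under quantile normalization). Of the 782 genes that averaged 100 FPKM or more, 489 were higher and 293 lower. The median log2 fold change of the partner genes was 0.16, beside 0.0033 over all genes tested and 0.037 over those 782. The number of partner genes past 1.5-fold was 5, or 12.8%, all of them higher, beside the 2.24% of all genes that were past the fold upwards. The list was drawn up with earlier results known, among them the value of FGF1, so its count is not independent of the data.

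Among the genes of plasmin formation, which S100A10 and annexin A2 promote at the cell surface, PLAT, the tissue-type activator, was at 1.56 FPKM with the vector and 3.22 FPKM with INAVA, a log2 fold change of 0.85. PLAUR, the receptor of urokinase, was at 27.9 and 42.9 FPKM, a log2 fold change of 0.62. PLAU, which encodes urokinase itself, was lower in TPC1-INAVA, at 288 and 218 FPKM, and shares its recorded position with another gene. The activators and the receptor therefore did not go one way. CTSB, which encodes cathepsin B, a protease found with the annexin A2 complex, was at 128 and 290 FPKM, a log2 fold change of 1.17. Plasminogen (PLG) was not listed.

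Of the myosin and tropomyosin genes on the list, MYH10, a second non-muscle myosin heavy chain, was lower with INAVA, with a log2 fold change of -0.086. The other 6 with a value were higher, and MYH14 was not listed. S100A4, which binds the product of MYH9, was lower. MYH9 was at 222 FPKM with the vector and 272 FPKM with INAVA, a log2 fold change of 0.29. MYL9, a myosin light chain, was at 39.9 and 55.2 FPKM, and shares its recorded position with another gene. The 4 tropomyosin genes, whose products coat actin filaments, had log2 fold changes of 0.46 for TPM1, 0.34 for TPM2, 0.22 for TPM3 and 0.41 for TPM4. The level of MYH9 was 26.4 times that of S100A4 in TPC1-Vector and 65.1 times in TPC1-INAVA. None of these myosin and tropomyosin genes was past 1.5-fold.

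MDM2, which encodes a ubiquitin ligase that binds S100 proteins, was at 31.9 FPKM with the vector and 51.4 FPKM with INAVA, a log2 fold change of 0.68. Of the receptors, AGER was at 0.569 and 0.586 FPKM, at a position that the table places on an alternate sequence of chromosome 6, and TLR4 was at 6.68 and 6.88 FPKM. BSG, a surface receptor of extracellular S100 proteins, was at 346 and 394 FPKM. None of these 3 receptors was past 1.5-fold.

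**Figure D5:**
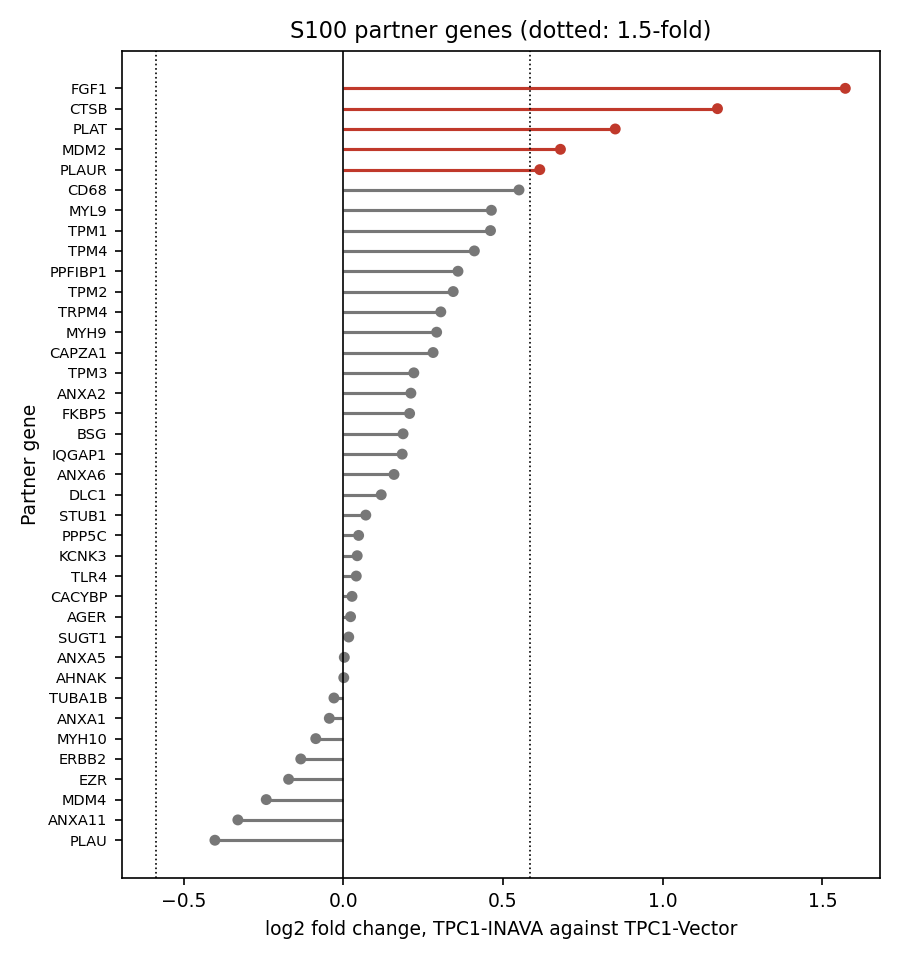
Log2 fold change, TPC1-INAVA against TPC1-Vector, of 38 of the 39 S100 partner genes that passed the filter (1 is not shown), with red points for the 5 past 1.5-fold (dotted lines). FGF1 is highest at 1.57, followed by CTSB at 1.17, and PLAU is lowest at -0.40.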

How the data were processed

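RNA-seq of 4 libraries (2 per group) was deposited by the authors as FPKM, 1 value per gene and group. The processing notes list CASAVA, Cufflinks 2.1.1, Cuffdiff and the build hg38. The aligner and annotation are not given in the sources used here, and the library kit differs between the labels and the methods, so strandedness is unknown. The authors' log2 ratios, p-values and q-values were not used, and 0 columns of per-sample values were present. The planned limma test could not be run on 1 value per group.

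Differences are log2(FPKM + 0.5) in TPC1-INAVA minus TPC1-Vector, which understates the change of weak genes. Genes that averaged 0.5 FPKM or more were kept, and 1.5-fold was the limit for counts. The fold rule was checked on values with known folds put in. These values carried no replicate noise and left out weak genes such as S100A4, so only the arithmetic was checked. Genes named were the members, other listed S100 genes, INAVA, set partners and genes past 1.5-fold. KRT8, KRT18, TPM1 to TPM4, MYH10, TLR4 and CHTOP were named after their values were seen. Some items of the lists are not reported here. Members and lists were chosen with earlier results of these data known.

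Gene models came from GENCODE release 29 (GRCh38), whose genes of the same name overlapped all 8 listed members. Words of 50 bases shared between annotated transcripts were counted on both strands. Promoter sequence came from RefSeq, in windows of 250 bases before the start. Alternatives were pseudocounts of 0.1 and 1, none (added after seeing the data), median-of-ratios and quantile scaling, other filters, and limits of 0.32 in log2 and 2-fold. Python 3.11.15, numpy 2.4.6, pandas 2.3.3 and matplotlib 3.10.9 were used.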

Additional observations from a re-analysis of the deposited data

How the results depend on the processing

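No paired analysis was possible because the table has 1 value per group. Leaving out each replicate, the replicate block and limma were not run for the same reason. Values without replicates were called moved at 0.1 or more (log2), and counts beyond 1.5 times. The 8 listed members kept their direction under both other scalings. A pseudocount added to both groups cannot change a direction. None of the alternatives could change the order of members within a group. The median of the members ranged from 0.11 with quantile normalization to 0.15 without a pseudocount, and S100A4 from -1.01 without a pseudocount to -0.86 with a pseudocount of 1. The limit decides the counts. At 0.32 in log2, which 14.4% of all genes passed, there were 2 members (S100A4 and S100A13), 2 other S100 genes, 13 partner genes, 6 other EF-hand genes and 5 neighbours on chromosome 1. At 2-fold, which 0.853% of all genes passed, there were 0 members, 2 partner genes and 0 neighbours. Over all genes tested, 276 were past 1.5-fold upwards and 179 downwards in the main setting. With a pseudocount of 0.1, S100A1 passed 1.5-fold, which gave 1 other S100 gene and 2 neighbours, beside 376 and 289 of all genes. With a pseudocount of 1 there were 0 neighbours, beside 201 and 124 of all genes. Without a pseudocount there were 2 other S100 genes (S100A1 and HRNR) and 4 neighbours, beside 411 and 329 of all genes. The pseudocount acts on weak genes by its construction. AHNAK, CACYBP and AGER, with differences near 0, changed sign under quantile normalization, AHNAK also under median-of-ratios scaling. With no depth given, no counting error can be set on S100A3 and S100A4.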

Other observations

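Calcium-binding proteins with EF hands outside the S100 family were described through a list of 36 genes. Of these, 30 were listed and passed the filter, 17 higher and 13 lower in TPC1-INAVA (15 and 15 under quantile normalization). Their median log2 fold change was 0.039, beside 0.0033 over all genes tested, of which 6256 were higher and 6049 lower. Of the genes for calmodulin, the general calcium sensor of the cell, CALM2 was at 534 FPKM with the vector and 589 FPKM with INAVA, and CALM3 was at 220.0 and 234 FPKM. S100A11 was thus above both in each group. Past 1.5-fold were 2 of the 30 genes, or 6.67%, both lower, beside 1.45% of all genes. TESC, which encodes tescalcin, was at 9.27 and 2.58 FPKM, a log2 fold change of -1.66. KCNIP1, a calcium-binding subunit of potassium channels, was at 17.0 and 3.89 FPKM, a log2 fold change of -1.99. Both were known to be lower before the list was drawn up.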
